A study of Mus musculus with 8 samples.

Results

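The genes described here are the ADAM, ADAMTS, ADAMTSL, MMP and TIMP genes measured in whole mouse hearts. A gene belonged if its deposited symbol was 1 of the stems Adam, Adamts, Adamtsl, Mmp or Timp followed by a number and at most 1 letter, which 56 of 17911 genes met. These were 15 ADAM, 16 ADAMTS, 5 ADAMTSL, 16 MMP and 4 TIMP genes. The GENCODE vM21 annotation has 83 protein-coding genes with such names, and the other 27 are not analysed here. RNA was sequenced from single hearts of 4 female and 4 male mice of genotype C57Bl6/J wt, all of batch 1, with no transgene, deletion or treatment named for either sex. The age is 4 weeks in the series text and 4 to 6 weeks in the extraction protocol. The comparison asks which transcripts of these genes differ between female and male hearts, under a series title that concerns female heart development. Female hearts are replicates 1 to 4 and male hearts replicates 1, 3, 4 and 5, and values per heart are given in that order.

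Matrix metalloproteinases (MMPs) are zinc enzymes that cut collagens, elastin and other matrix proteins, some secreted and some bound to the cell membrane. ADAMs are membrane proteins, several of which cut other membrane proteins free from the cell surface, a step called shedding. ADAMTS enzymes are secreted and act on proteoglycans, procollagens and microfibrils, while ADAMTS-like (ADAMTSL) proteins share their ancillary domains but have no catalytic domain. Tissue inhibitors of metalloproteinases (TIMPs) block MMPs and, for some pairs, ADAMs and ADAMTS enzymes. In the heart these families are known for remodelling of the matrix and valves and for the release of growth factors.

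Each heart gave 51.7 to 75.7 M reads over genes, fewest in female replicate 4, male replicate 5 and female replicate 3. The tissue label held against its markers, since the summed level of 5 cardiomyocyte genes (Myh6, Tnnt2, Tnni3, Actn2 and Ryr2) was 2944247 to 3456591 in all 8 hearts. Xist and 4 Y-linked genes followed the sex labels in all 8. Summed macrophage markers did not overlap between the sexes, at 12119.6 to 14339 in females and 15386 to 18174 in males. Of the 8 macrophage genes, all with a negative log2, Csf1r, C1qa and C1qb fell in females, beside 0.687% of all genes lower. The other 5 did not pass an adjusted p of 0.05 in limma. Of the 5 cardiomyocyte genes (3 positive, 2 negative) Ryr2 rose (log2 0.20, adjusted p = 0.0341, limma) and 4 did not pass. Of 6 fibroblast genes (5 positive, 1 negative) Lum rose (log2 0.30, adjusted p = 0.00285, limma) and 5 did not pass. Of all genes 0.475% were higher.

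The promoters of 3 members are shown because Adamtsl3 had the smallest p of all 56 members between the sexes, and Mmp3 and Mmp13 are inducible matrix enzymes whose promoters are poorer in G and C. Each is the 250 bases before the annotated start, from RefSeq for GRCm38.p6, on the plus strand. Adamtsl3 lies at chr7:82335444-82335693, Mmp3 at chr9:7445572-7445821 and Mmp13 at chr9:7272264-7272513. Capitals mark motif matches on either strand. GGGCGG is the GC box, bound by Sp factors. TATAAA is the TATA box. TGANTCA, in which N is any base, is bound by the factor pair AP-1.
Adamtsl3: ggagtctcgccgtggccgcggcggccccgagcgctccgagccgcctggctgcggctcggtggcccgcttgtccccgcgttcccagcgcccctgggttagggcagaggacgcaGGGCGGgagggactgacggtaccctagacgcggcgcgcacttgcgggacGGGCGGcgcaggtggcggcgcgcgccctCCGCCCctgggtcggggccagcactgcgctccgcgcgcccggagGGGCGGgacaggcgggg
Mmp3: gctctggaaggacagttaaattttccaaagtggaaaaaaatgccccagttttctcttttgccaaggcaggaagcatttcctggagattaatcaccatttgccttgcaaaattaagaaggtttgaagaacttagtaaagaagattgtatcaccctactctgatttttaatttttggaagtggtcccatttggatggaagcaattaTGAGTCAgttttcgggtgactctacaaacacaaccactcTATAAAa
Mmp13: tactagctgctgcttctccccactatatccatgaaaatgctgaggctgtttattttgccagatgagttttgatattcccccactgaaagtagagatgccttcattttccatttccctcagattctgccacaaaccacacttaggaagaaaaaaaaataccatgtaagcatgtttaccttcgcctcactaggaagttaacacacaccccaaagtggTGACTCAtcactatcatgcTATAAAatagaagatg
The Adamtsl3 window was 80.0% G or C with 39 CpG dinucleotides, held 4 GC boxes and no match to the other motifs. The Mmp3 window was 37.6% G or C and the Mmp13 window 40.4%, and each held 1 AP-1 match and 1 TATA box, with 1 CpG dinucleotide. The median of all 32851 promoter windows was 52.4% G or C.

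Promoter windows were matched for 35 members, 39 windows in all, because some genes have more than 1 start. Their median was 63.2% G or C. A GC box stood in 23 of the 39 windows (59.0%), against 32.7% of all windows. TGANTCA was found in the windows of Adam19, Mmp12, Mmp13 and Mmp3 (10.3% of member windows, 6.75% of all), and TATAAA in those of Adamts1, Adamtsl2, Mmp13 and Mmp3 (10.3% and 12.4%). The E-box CACGTG was in the windows of Adam10, Adam19 and Adamts17 (7.69% and 6.02%). The palindromic estrogen response element was in 0 of 39 member windows and in 0.0639% of all. Adam11 and Adamts7, both called between the sexes below, had no matched window, so these motif counts do not cover them. No motif overlapped another in the sequences shown. These letter matches were not tested against any measurement.

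Between the sexes, 2 members rose and 1 fell in female hearts. Adamtsl3, a secreted glycoprotein of the ADAMTS-like family, and Adamts7, an enzyme known for cutting cartilage oligomeric matrix protein (COMP), were higher, and Adam11, a membrane ADAM without protease activity, was lower. The other 53 did not pass an adjusted p of 0.05 in limma, a linear model fitted to log2(value + 1) over all 17911 genes. The 3 calls are 2 of 56 higher and 1 of 56 lower, beside 0.475% of all genes higher, 0.687% lower and 1.16% in either direction. Fold changes are female minus male on that log2 scale, and values are normalized read counts.

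Adamtsl3 (chromosome 7, 82335694 to 82614450, plus strand, mm10) was measured at 673, 687, 725 and 713 in females and 521, 533, 551 and 451 in males. Every female heart was above every male heart, with the lowest female value at 673 and the highest male value at 551. It rose by a log2 of 0.45 (SE 0.07, 95% interval 0.30 to 0.59, limma adjusted p = 0.00906), with a female mean of 699 ± 23.7 and a male mean of 514 ± 43.7 (SD, n = 4 each), 36.0% higher in females. The call remained with each heart left out in turn, at adjusted p from 0.00544 to 0.036. It was lost in 2 of 19 alternatives, of which the 5 hearts with the most reads alone gave a log2 of 0.35 (adjusted p = 0.0579, limma).

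Adamts7 (chromosome 9, 90163069 to 90208071, plus strand) was measured at 2608, 2778, 3056 and 2791 in females and 2379, 2303, 2347 and 2529 in males. The sexes did not overlap, but the lowest female heart, 2608, and the highest male heart, 2529, were close. It rose by a log2 of 0.23 (SE 0.05, 95% interval 0.13 to 0.34, limma adjusted p = 0.0411), a mean 17.5% higher. Leaving out 1 heart ended the call for 6 of 8 hearts, with adjusted p up to 0.119, and kept it without female replicate 1 (0.0308) or male replicate 5 (0.016, limma). Its exons share 122 bases (1.94%) with those of Tbc1d2b on the opposite strand, which had 1557 normalized reads on average.

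Adam11 (chromosome 11, 102761439 to 102780262, plus strand), known from the nervous system, was measured at 1202, 1097, 1196 and 1298 in females and 1613, 1376, 1394 and 1502 in males. The highest female heart, 1298, was below the lowest male heart, 1376. It fell by a log2 of 0.30 (SE 0.06, 95% interval -0.43 to -0.16, limma adjusted p = 0.0411), from a male mean of 1472 ± 109.8 to a female mean of 1198 ± 82.4 (SD, n = 4 each). The call was kept without female replicate 4 (0.0384) or male replicate 5 (0.0433) and ended without any of the other 6, at adjusted p up to 0.128 (limma). For each of the 3 genes the two-sided exact permutation p over 70 assignments of hearts was 0.0286, the smallest it can give. Any gene whose sexes do not overlap gives this p, and 9.35% of all genes had no overlap. Macrophage markers also did not overlap between the sexes, and their part in these differences was not tested. In these bulk samples fewer cells of a type and less RNA per cell cannot be told apart.

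**Figure D1:**
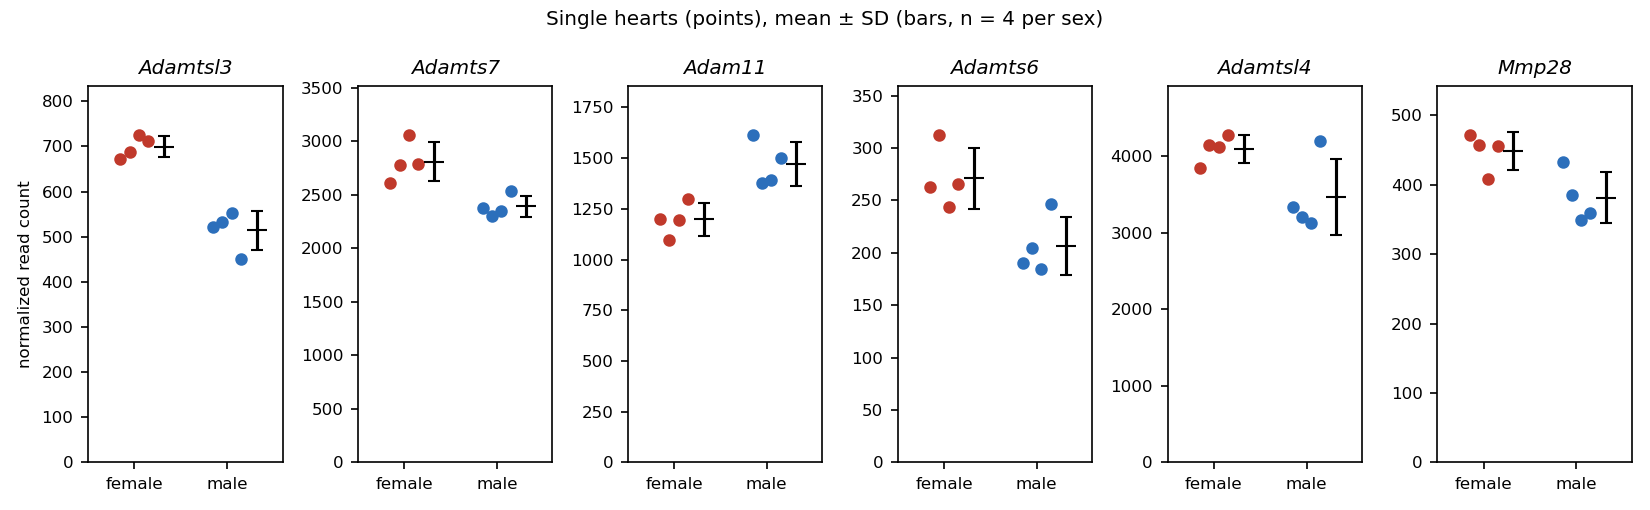
Normalized read count (linear axes from 0) of Adamtsl3, Adamts7, Adam11, Adamts6, Adamtsl4 and Mmp28 in single hearts (points, red female, blue male), with mean ± SD (bars, n = 4 per sex). Female and male points separate for Adamtsl3, Adamts7 and Adam11, and the male range of Adamtsl4 reaches 4193, into the female range.

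The next members by p did not pass. Adamts6, known for its role with fibrillin microfibrils and in heart development, was measured at 263, 312, 244 and 266 in females and 190.4, 205, 185 and 246 in males. Only male replicate 5, at 246, reached into the female range, whose lowest heart was 244. Its log2 was 0.39 (SE 0.11, limma adjusted p = 0.114), and 0.48 (adjusted p = 0.0282) without male replicate 5.

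Mmp28, epilysin, was measured at 471, 458, 409 and 456 in females and 432, 385, 349 and 359.6 in males. Its log2 was 0.24 (limma adjusted p = 0.175), with male replicate 1 inside the female range. Of its exon length 12.0% is shared with the opposite-strand gene 1700020L24Rik, which had means of 132 in females and 99.6 in males. Adamts3, a procollagen N-proteinase, came next, with a log2 of 0.37 (SE 0.13, limma adjusted p = 0.189).

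In the authors' deposited table, 4 members passed an adjusted p of 0.05, 3 higher and 1 lower in females, beside 4.90% of the 14088 genes given one (2.16% higher, 2.73% lower). These were Adamtsl3, Adamts7 (0.00228) and Adamts6 (0.0317) higher in females and Adam11 (0.0019) lower. No adjusted p stands there for 8 members. The labels name another cutoff, a log2 fold change above 0.6 with a p-value under 0.05, which Mmp24 (log2 1.00 in the authors' deposited table) and Mmp27 (-0.87 there) passed, beside 1.35% of genes (0.738% higher, 0.615% lower).

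Both are low genes. Mmp24, a membrane-type MMP, had 20.4, 8.73, 11.7 and 13.4 in females and 8.24, 6.88, 5.97 and 6.03 in males, and Mmp27 had 5.82, 9.70, 10.6 and 12.2 in females and 13.7, 15.5, 17.9 and 22.9 in males. The sexes did not overlap for either, yet no heart held more than 21 reads of either gene. Their limma adjusted p was 0.219 for Mmp24 and 0.202 for Mmp27. In addition, 13.6% of the Mmp24 exon length is shared with BC029722 on the opposite strand, at 1192 normalized reads on average. Since the strand setting is not given in the sources used here, reads from such partners cannot be told apart.

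Across all 56 members, 30 log2 values were positive and 26 negative, with a median of 0.01 beside 0.00 over all genes. An unadjusted p under 0.05 was met by 11 members with higher and 4 with lower female values, 26.8% beside 16.0% of all genes (7.84% higher, 8.16% lower). The sexes did not overlap for 4 higher members (Adamts7, Adamtsl3, Mmp11, Mmp24) and 2 lower ones (Adam11, Mmp27), 10.7% beside 9.35% of all genes (4.52% higher, 4.82% lower). The 56 members include 8 with a mean under 50: Adam32, Adam4, Adam5, Adamts20, Mmp12, Mmp24, Mmp25 and Mmp27. Timp1 is the single member on chromosome X.

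**Figure D2:**
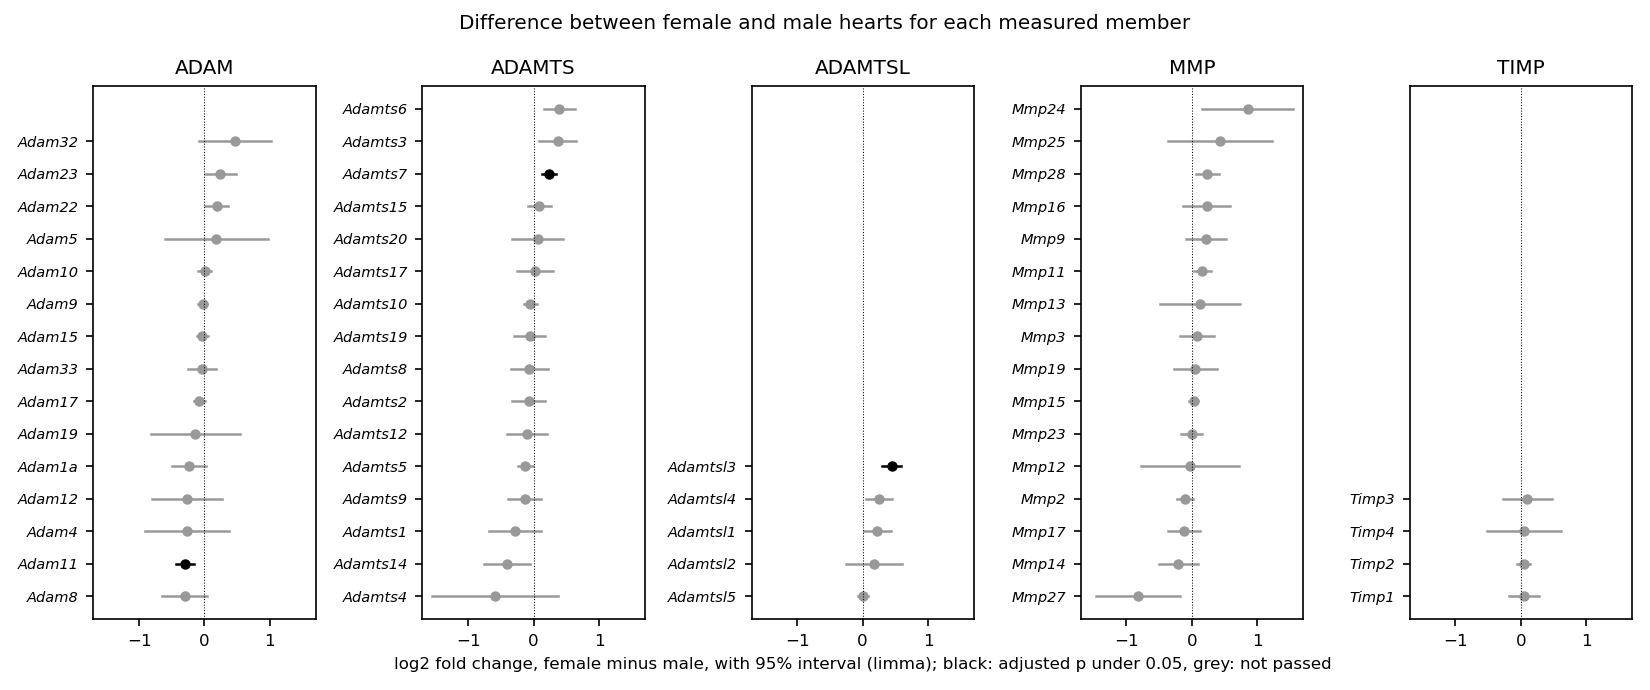
Log2 fold change, female minus male, with its 95% interval (limma) for each of the 56 members, by family, black where the adjusted p was under 0.05 and grey otherwise. Adamtsl3 and Adamts7 lie to the right of 0 and Adam11 to the left. Intervals are wide for some genes with few reads, and also for Adamts4 (-1.56 to 0.37) and Adam19 (-0.82 to 0.54).

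The 8 ADAMs that shed membrane proteins gave 0 calls in limma, beside 1.16% of all genes, and 0 with edgeR, DESeq2 or limma-voom. At an unadjusted p under 0.05 in limma there were 0, beside 16.0% of all genes. Of their 8 log2 values 7 were negative, with a median of -0.06, where 50.9% of all genes were positive. However, Adam15, Adam19 and Adam33 turned sign in 1, 2 and 4 of 19 alternatives. By length, the highest were Adam9, Adam10 and Adam15, at 1059 ± 30.2, 786 ± 37.2 and 549.6 ± 21.0 normalized reads per kilobase of merged exons (SD over 8 hearts). With the longest coding transcript as length, Adam15 came first at 1135 per kilobase, before Adam9 at 1078 and Adam10 at 841, so their order depends on the length used. Adam10, the main enzyme that cuts Notch receptors, was measured at 3864, 4108, 3752 and 3736 in females and 3931, 3994, 3989 and 3534 in males.

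Adam9, a widely expressed sheddase, was at 4275, 4383, 4362 and 4230.2 in females and 4328, 4372, 4634 and 4277 in males, with the sexes overlapping. Adam15, known from vessel walls, was at 3379, 3415, 3124 and 3447 in females and 3431, 3527, 3446 and 3249.7 in males, again with overlap. The log2 values were -0.03 for Adam9, 0.00 for Adam10 and -0.03 for Adam15, with 95% intervals of -0.10 to 0.04, -0.10 to 0.10 and -0.12 to 0.05. Adam17, which releases tumour necrosis factor, stood at 382 per kilobase and had a log2 of -0.08 (limma adjusted p = 0.318).

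Adam33 (log2 -0.04) and Adam8, a leukocyte sheddase (log2 -0.31, limma adjusted p = 0.38), did not pass. Adam8 was highest in male replicate 3, at 106, where summed neutrophil markers were 262. In male replicate 5, where those markers were highest at 349, Adam8 was 62.7, the lowest of the 8 hearts. The other 6 hearts had neutrophil sums of 41.5 to 83.4. Only 4 of the 9 neutrophil markers were measured, and their part in Adam8 was not tested.

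Adam11, Adam22 and Adam23 are ADAMs without protease activity, and of these Adam11 fell. Adam22 (log2 0.18, adjusted p = 0.274) and Adam23 (log2 0.24, adjusted p = 0.3), both receptors of LGI proteins in the nervous system, did not pass in limma. The 4 ADAMs known from testis, Adam1a, Adam4, Adam5 and Adam32, had log2 values from -0.27 (Adam4) to 0.47 (Adam32) with no call. The exon length of Adam1a is shared to 63.7% with Gm42878 and to 24.0% with Mapkapk5, both on the same strand, and to 11.3% with Tmem116 on the opposite strand, so its 141 to 211 reads have an uncertain source. Adam4, Adam5 and Adam32 had means of 14.6, 10.6 and 16.0. Adam4 lies inside Cox16 and Gm20498 on the same strand, at means of 621 and 79.2, and shares 0 exon bases with them. Adam32 lies 0.807 kb from Adam9 on the same strand. The part of reads from these genes in Adam4 and Adam32 was not tested.

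The ADAMTS genes were led by Adamts1, Adamts7 and Adamts10, at 504 ± 100.3, 414 ± 41.8 and 372 ± 18.1 per kilobase, which held 57.5% of the family sum. Their order changed with the longest coding transcript as length, which put Adamts10 first at 760.4, then Adamts1 at 547 and Adamts7 at 483. The SDs of Adamts1 and Adamts7 overlap. Adamts10, which binds fibrillin microfibrils, was at 3089, 2978, 2808 and 3227 in females and 3041, 3218, 3235 and 2999 in males, with overlapping sexes and a log2 of -0.05 (95% interval -0.15 to 0.05).

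The 7 enzymes that cut proteoglycans such as versican and aggrecan gave 0 calls in limma, beside 1.16% of all genes. They gave 0 with edgeR, DESeq2 or limma-voom. Adamts5 alone had an unadjusted p under 0.05 in limma, beside 16.0% of all genes. Adamts5 had a log2 of -0.12 (limma adjusted p = 0.257), Adamts9 -0.14, Adamts15 0.09, Adamts8 -0.06 and Adamts20 0.06. Adamts1 was measured at 2195, 2066, 2698 and 2616 in females and 2245, 3662, 2782 and 3125 in males, with male replicate 3 the highest heart. Its log2 was -0.29 (SE 0.17, limma adjusted p = 0.461).

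Adamts4 varied most of the members with a mean of at least 50, at 133, 116, 70.3 and 81.6 in females and 185, 249.6, 153 and 66.4 in males. Male replicate 5 was the lowest heart and male replicate 3 the highest. Its residual coefficient of variation (CV, the spread within sex relative to the mean) was 43.7%, and its log2 of -0.60 (limma adjusted p = 0.545) did not pass. The 3 hearts with the fewest reads in total, female replicates 3 and 4 and male replicate 5, were also the 3 lowest for Adamts4. The summed immediate early genes, which respond to handling of tissue, were 8158, 11050.4, 9081 and 8778 in females and 9076, 12856, 9966 and 12321 in males, highest in male replicate 3, as for Adamts1 and Adamts4, and next in male replicate 5, where Adamts4 was lowest. The part of total reads and of these genes in the spread of Adamts1 and Adamts4 was not tested.

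Of the 3 procollagen N-proteinases, Adamts2 was highest by length at 258 per kilobase (log2 -0.08). Adamts3 (log2 0.37) and Adamts14 (log2 -0.41, adjusted p = 0.244, limma) had opposite signs, and neither passed. Adamts3 was at 322, 403, 449 and 474 in females and 286, 298, 303 and 383 in males, with male replicate 5 above female replicate 1. Of the pair that cuts COMP, Adamts7 rose and Adamts12 had a log2 of -0.10 (limma adjusted p = 0.783). The difference between these log2 values was not tested. Besides Adamts6 and Adamts10, the fibrillin-associated enzymes Adamts17 (log2 0.02) and Adamts19 (-0.06) did not pass.

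All 5 ADAMTS-like genes had a positive log2, with a median of 0.23, beside 50.9% of all genes positive and a median of 0.00. Of the 5, Adamtsl3 passed, beside 0.475% of all genes called higher. The sign of Adamtsl5 turned in 5 of 19 alternatives, so 5 of 5 does not hold under each of them. Levels per kilobase were 1330.0 ± 42.3 for Adamtsl5, 899.6 ± 115 for Adamtsl4 and 175 ± 31.5 for Adamtsl2, which together made 96.1% of the family sum, and Adamtsl3 stood at 78.3. The summed level per kilobase was 2604 ± 58.7 for the 4 female hearts and 2400 ± 115 for the 4 male hearts (SD), lowest in male replicate 4 at 2314 and highest in female replicate 2 at 2654. The sexes overlapped, with male replicate 5 at 2568 above female replicate 1 at 2520.

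Adamtsl4, which binds fibrillin and is known from the eye lens, was at 3838, 4138, 4116 and 4272 in females and 3328, 3209, 3119 and 4193 in males. Male replicate 5 alone lay among the females. Its log2 of 0.25 (SE 0.09, limma adjusted p = 0.219) did not pass, but without that heart it was 0.35 (adjusted p = 0.00142), and over the 5 hearts with the most reads 0.31 (adjusted p = 0.0232). Adamtsl2, another fibrillin-binding protein, was at 1646, 1430.3, 1151 and 1702 in females and 998, 1625, 1374 and 1272 in males, and its log2 was 0.18.

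Adamtsl5 was at 6089, 6528, 6575 and 5990.3 in females and 6318, 6252, 6187 and 6303 in males, the most even of the 5 genes, with a residual CV of 3.43%. Adamtsl1 (log2 0.23, limma adjusted p = 0.279) did not pass.

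Levels of the MMP genes were led by Mmp15, a membrane-type enzyme, at 1787 ± 57.8 per kilobase, Mmp2 (gelatinase A) at 1418 ± 103 and Mmp23 at 246 ± 17.4. Mmp14, the membrane enzyme that activates Mmp2 together with Timp2, was close to Mmp23 at 229.9 ± 34.9, and with the longest coding transcript Mmp14 came before Mmp23. The 3 highest made 80.8% of the family sum. No MMP of the 16 passed in limma, beside 1.16% of all genes, nor in edgeR, DESeq2 or limma-voom. An unadjusted p under 0.05 in limma was met by 4 (3 with higher and 1 with lower female values), beside 16.0% of all genes (7.84% higher, 8.16% lower). The median log2 was 0.07, and it was -0.03 with the replicate number in the titles as a block.

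Mmp15 was at 9387, 10233, 9919 and 9418 in females and 9516, 9834, 9437 and 9427 in males, one of the most even members, with a log2 of 0.03 (95% interval -0.05 to 0.10). Mmp2 was at 4701, 4345, 4536 and 4828 in females and 4609.6, 5435, 5123 and 4653 in males, with 2 of 4 male hearts above all females and a log2 of -0.10 (SE 0.05, limma adjusted p = 0.378). Mmp23 was at 599, 630.3, 505 and 564 in females and 567, 583, 611 and 537 in males, and the sexes overlapped. Mmp14 had a log2 of -0.21 (limma adjusted p = 0.491), and its female hearts were 1103 to 1455 against 1148 to 1632 in males. Mmp9 (gelatinase B) had a mean of 128 and a log2 of 0.22, and Mmp16, another membrane-type enzyme, 60.2 and 0.23. The GPI-anchored enzymes Mmp17 and Mmp25 had log2 values of -0.12 and 0.43. Mmp11, a stromelysin, did not overlap between the sexes (532, 534, 526 and 552 in females and 485, 505, 494 and 433 in males), and its log2 of 0.16 did not pass (limma adjusted p = 0.232).

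Mmp13, Mmp12, Mmp3 and Mmp27 lie in this order on chromosome 9, with gaps of 61.05, 76.3 and 115 kb, and the promoters printed for Mmp3 and Mmp13 belong to this group. Mmp3, a stromelysin, was at 242, 320.0, 233 and 285 in females and 286, 249.6, 266 and 216 in males, with overlapping sexes. Mmp13, a collagenase, was at 68.9, 96.0, 69.2 and 51.2 in females and 47.6, 50.8, 113 and 60.3 in males, highest in female replicate 2 and male replicate 4. Its residual CV was 36.4%. The same hearts were highest for the summed T cell and thymocyte markers, at 177, 297, 79.9 and 71.9 in females and 91.5, 86.9, 315 and 78.4 in males. Rag1, a defining gene of developing lymphocytes, was 30.1, 89.2, 7.45 and 0.00 in females and 2.75, 1.72, 108 and 3.62 in males, and 5 of the 7 markers were measured. Their part in Mmp13 was not tested. Mmp12, the macrophage elastase, had a mean of 28.9 and a log2 of -0.03, with the sign turning in 8 of 18 alternatives. Mmp19 had a log2 of 0.05, and 22.3% of its exon length is shared with Tmem198b on the opposite strand.

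**Figure D3:**
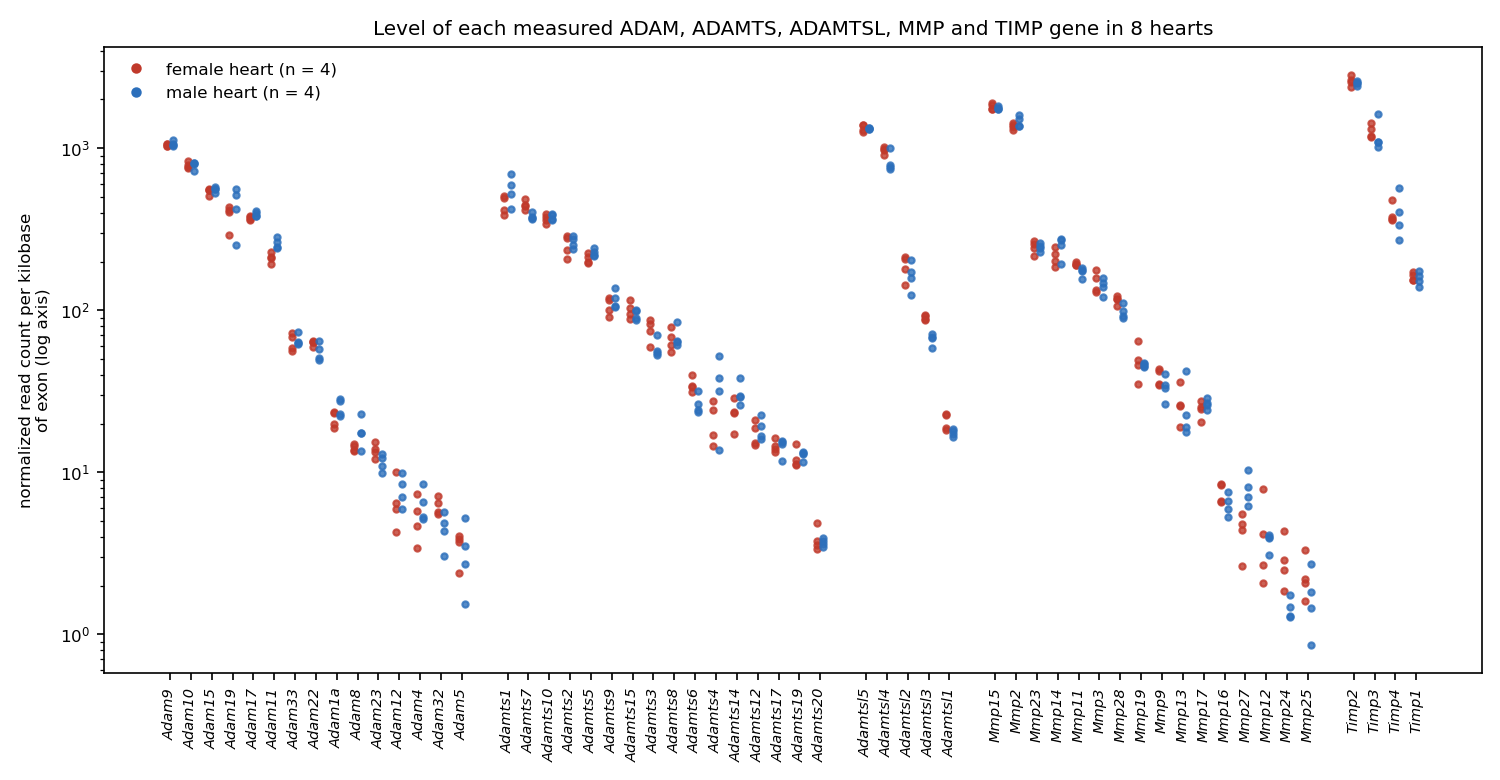
Normalized read count per kilobase of merged exons (log axis) for each of the 56 members in the 4 female (red) and 4 male (blue) hearts, ordered within family by mean level. Timp2 stands highest at 2558 and a few genes carry most of each family's sum.

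No TIMP of the 4 passed in limma, beside 1.16% of all genes, nor in edgeR, DESeq2 or limma-voom. Of the 4, 0 had an unadjusted p under 0.05 in limma, beside 16.0% of all genes. Timp2, the partner of Mmp14 in Mmp2 activation, had the highest level per kilobase of all members, 2558 ± 134, and 58.9% of the summed TIMP level. It was at 10962, 9947, 9284 and 10263 in females and 9896, 9905, 10065 and 9391 in males, with a log2 of 0.04 (95% interval -0.06 to 0.14). Timp3, which binds to the matrix and also blocks ADAMs, stood at 1242 ± 202 per kilobase, Timp4, known for its level in heart, at 395 ± 91.3, and Timp1 at 159 ± 11.5.

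Timp3 was at 10672, 9584, 9727 and 11595 in females and 8959, 8899.5, 8262 and 13226 in males. The highest heart was male replicate 5, and next was female replicate 4, the 2 hearts with the fewest reads. Timp4 was at 2232, 2158, 2126 and 2810.0 in females and 2378, 1972, 1609 and 3362 in males, again highest in those hearts. The log2 values were 0.10 (SE 0.16) and 0.05 (SE 0.24), and both were negative with total reads as a covariate, at -0.08 and -0.22. Timp1 had a log2 of 0.04 and a residual CV of 7.63%. Timp1, Timp3 and Timp4 each lie inside a synapsin gene on the opposite strand (Syn1, Syn3 and Syn2, at means of 69.0, 66.1 and 297). Timp3 shares 21.3% of its exon length with Syn3.

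The ratio of summed TIMP to summed MMP level per kilobase was 1.04 ± 0.0685 for the 4 female hearts and 1.00 ± 0.119 for the 4 male hearts (SD), from 0.912 to 1.17, with overlapping sexes. The ratio of Timp2 to Mmp14 was 12.3 ± 0.882 in females and 10.4 ± 1.47 in males. Here too the sexes overlapped, with male replicate 5 at 12.5, inside the female range of 11.5 to 13.2. These ratios were not tested.

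Among the 48 members with a mean of at least 50, the median residual CV was 10.8%, beside 5.73% over all 14058 such genes, which were not matched on level. It ran from 2.84% (Adam9) to 43.7% (Adamts4). The 5 largest belonged to Adamts4, Mmp13 (36.4%), Adam12 (28.9%), Adam19 (25.7%) and Timp4 (24.9%).

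Adam12, a sheddase of heparin-binding EGF-like growth factor, was at 106, 45.6, 62.8 and 68.2 in females and 89.7, 105, 74.2 and 62.7 in males. Female replicate 1 and male replicate 3 were highest, and female replicate 2 lowest. Female replicate 1 also had the highest summed adipocyte markers, 11036 against 1804 to 4443 in the other 7, and their part in Adam12 was not tested. Adam19, known for its role in heart valve and septum formation, was at 2865, 2942, 2077 and 3077 in females and 3974, 3668, 3012 and 1796 in males. Its lowest hearts were male replicate 5 and female replicate 3, and its sexes overlapped (log2 -0.14, limma adjusted p = 0.867).

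**Figure D4:**
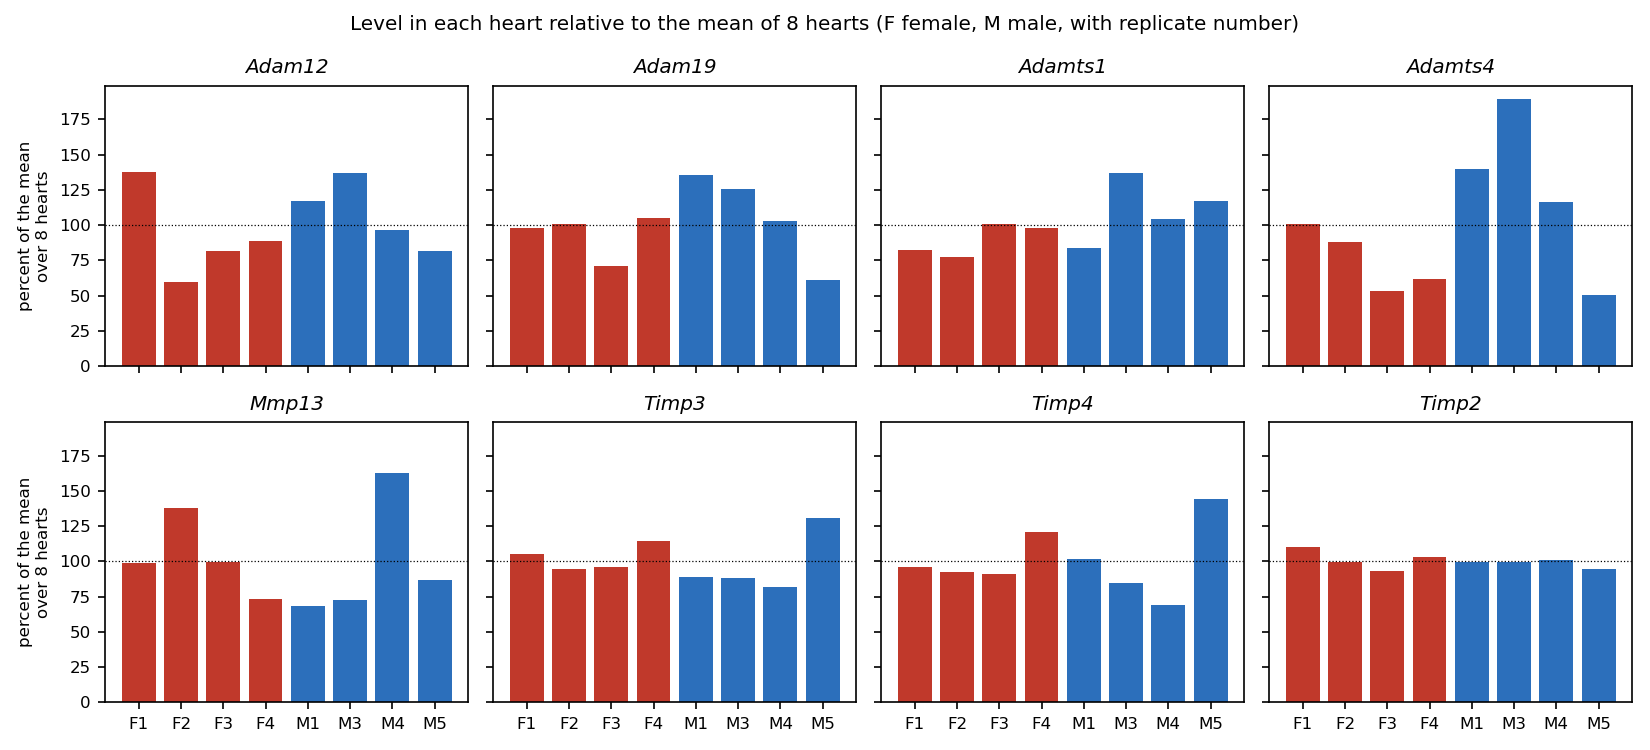
Level of Adam12, Adam19, Adamts1, Adamts4, Mmp13, Timp3, Timp4 and Timp2 in each heart as a percent of the mean of 8 hearts (bars from 0, red female, blue male, dotted line at 100). Timp2 is even, while Adamts4 and Adam19 are low in male replicate 5 and Timp3 and Timp4 are high there.

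Some members neighbour each other. Adamts1 and Adamts5 lie 53.1 kb apart on chromosome 16, with log2 values of -0.29 and -0.12. Adam5, Adam32 and Adam9 follow each other on chromosome 8, and Adamts15 and Adamts8 lie 20.1 kb apart on chromosome 9, with log2 values of 0.09 and -0.06. No neighbours both passed. Opposite-strand genes also share 20.6% of the exon length of Adam15, 10.6% of that of Adamts8 and 9.18% of that of Adamts9.

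Genes around these enzymes were followed through 3 lists. Of 31 measured partners in proteolysis at the cell surface (33 listed), Furin and Htra3 rose, Tspan17 fell and 28 did not pass, beside 0.475% of all genes higher and 0.687% lower. The median log2 was -0.02. Furin, the convertase that activates many metalloproteinase precursors, was at 7167, 7423, 7299.7 and 7454 in females and 6747, 6762, 6369.6 and 6572 in males, every female heart above every male heart. Its log2 was 0.15 (SE 0.03, limma adjusted p = 0.038), a mean 10.9% higher.

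Htra3, a secreted serine protease, was at 8156, 7867, 7945 and 8403 in females and 7106, 7453, 7453 and 7161 in males, with no overlap and a log2 of 0.15 (limma adjusted p = 0.0493). Tspan17, a tetraspanin partner of Adam10, was at 558, 519, 482 and 453 in females and 629, 665, 607 and 613 in males, again with no overlap. It fell by a log2 of 0.32 (SE 0.07, limma adjusted p = 0.0496). With 1 heart left out, Furin was called without male replicate 5 alone, Htra3 in no case, and Tspan17 without female replicate 1 or male replicate 5. None of the 3 was called over the 5 hearts with the most reads.

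Pcolce2, an enhancer of procollagen C-proteinase, had a log2 of 0.14, Serpine2, a protease inhibitor, -0.15, Rhbdf1, a partner of Adam17, -0.09, and the cystatin Cst3 -0.08. None passed, at limma adjusted p from 0.158 to 0.239. Of 28 measured membrane proteins that ADAMs are known to shed (30 listed), Dll4 fell and 27 did not pass, beside 0.687% of all genes lower and 1.16% in either direction. The median was -0.03. Dll4, a Notch ligand of endothelium, was at 1501, 1470.0, 1484 and 1337 in females and 1696, 1797, 1694 and 1889 in males. Its sexes did not overlap, and it fell by a log2 of 0.29 (SE 0.05, limma adjusted p = 0.0198). Leaving out female replicate 2 (adjusted p = 0.0562, limma) or male replicate 3 (0.0608) ended the Dll4 call.

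Il6ra (log2 -0.27), Tnfrsf1b (-0.26), Cdh2 (0.12, adjusted p = 0.0837) and Notch3 (0.14) did not pass in limma. Of 30 measured matrix substrates and partners 0 of 30 passed in limma and 7 had an unadjusted p under 0.05, beside 1.16% and 16.0% of all genes. Their median was 0.05, and the authors' deposited table called 1, beside 4.90% of genes there. Comp, a substrate of Adamts7, had a log2 of 0.29 (limma adjusted p = 0.106), at 791, 890.2, 695 and 731 in females and 629.6, 588, 617 and 699.9 in males. It was called in 3 of 19 alternatives. These were DESeq2 (adjusted p = 0.0247) and, in limma, the 5 hearts with the most reads (0.0282) and the fit without male replicate 5 (0.038). Ltbp4 (0.11) and Fbln5 (0.16), both of elastic fibres, did not pass. Ncan, a proteoglycan of brain, had a log2 of 1.73 with 3 to 40 reads per heart.

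**Figure D5:**
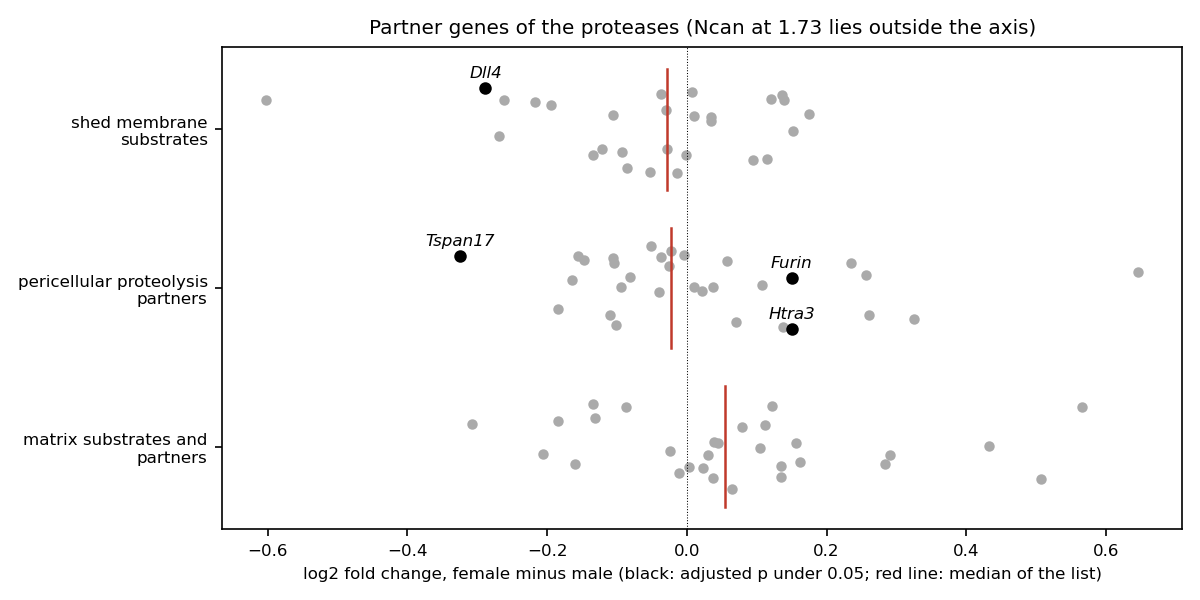
Log2 fold change, female minus male (limma), of the genes in each of the 3 lists (points, black where the adjusted p was under 0.05), with the list median as a red line. Furin and Htra3 lie to the right of 0 and Tspan17 and Dll4 to the left, and Ncan is outside the axis.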

How the data were processed

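RNA-seq of 8 whole hearts was analysed. For each heart the deposited table gives a signal, which from its values is a gene's reads over a size factor (0.821 to 1.17) set by the authors. The table also gives the authors' log2 fold change, unadjusted p-value and adjusted p-value for female against male. Per the submitters' processing notes the build was mm10; the sources used here do not give the aligner, counter, strand setting, low-count filter or test. Per the labels' protocols, the kit isolates small RNA, but the molecule is labelled total RNA, and more than 80 M reads are stated per sample.

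All values (100%) were whole multiples of 1 read within 0.001 reads, so whole reads were recovered. DESeq2 1.42.0 on them gave the authors' 690 calls, edgeR 4.0.16 (quasi-likelihood, TMM) 216 and limma-voom 213.

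The design allowed for either counts or normalized values. The main test was limma 3.58.1 in R 4.3.3, with its trend and robust options and no covariate, on log2(value + 1). Calls needed an adjusted p (Benjamini-Hochberg over 17911 genes) under 0.05. A value of at least 1 in 4 hearts was required, which removed 0 genes. The log2 scale understates the change of low genes. Adjusted p-values are from limma unless another source is named, and the scripts were tested on simulated data. Levels per kilobase used merged exons of GENCODE vM21, matched by identifier. Hearts came from single animals, and their litters are not given.

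Members and lists were chosen with earlier results of these data known. Values per heart are given for members past the threshold here or in the authors' table, the 5 smallest p, the 3 highest levels per family, the 5 largest CVs, and called genes of each list with up to 4 more; others were chosen after their values were seen. Same-sex hearts differed by 8.21 to 18.4 times sampling noise (chi-square per degree of freedom, 12 pairs), so none was counted as deposited again. The alternatives were other tests, pseudocounts of 0.1 and 5, no filter or one of 20, each heart left out, replicate blocks, total reads as a covariate, the 5 hearts with the most reads, and, chosen after seeing the data, the longest coding transcript as length.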

Additional observations from a re-analysis of the deposited data

Results flagged for a closer look

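Of 112 groups of 4 hearts (56 members, each sex), 5 held a heart far from the other 3 by Dixon's test, and chance alone flags about 1 in 20 groups. Timp3 was 13226 in male replicate 5, against 8262 to 8959 in the other males. Adam10 was 3534 in the same heart, against 3931 to 3994. Timp4 was 2810 in female replicate 4, against 2126 to 2232 in the other females. Adam33 was 394.6 in male replicate 4, against 334 to 342 in the other males. Adamts8 was 391.5 in male replicate 3, against 282 to 299; that heart also had 1268 normalized reads of the airway gene Scgb1a1, against 1.22 to 46.5 in the other 7, while Sftpc, of the lung's air sacs, was 0.861 there.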

How the results depend on the processing

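The call of Adamtsl3 was kept in 17 of 19 alternatives, that of Adam11 in 10 and that of Adamts7 in 9. These include the fit with no filter, which could not differ from the main fit because that filter removed no gene. That of Adamtsl3 was lost over the 5 hearts with the most reads and with the replicate block by library code number (log2 0.49, adjusted p = 0.138, limma). All genes called numbered 208, against 690 with DESeq2 and 26 with a replicate block by library code number, and 77 to 516 with 1 heart left out, most without male replicate 5. Members higher in females numbered 1 over the 5 hearts with the most reads. That was Adamtsl4, not called in the main fit, while the calls of Adamtsl3 and Adamts7 were lost there. Members higher numbered 1 with a covariate of total reads (Adamtsl3), 0 with the replicate block by library code number, and 1 to 4 with 1 heart left out. Members lower numbered 0 over the 5 hearts and with either replicate block, by code or by title number, and 0 to 1 with 1 heart left out. Called matrix substrates numbered 1 over the 5 hearts, 1 with DESeq2 and 0 to 1 with 1 heart left out. Called partners in proteolysis numbered 0 over the 5 hearts, with either replicate block or a covariate of total reads, and 0 to 3 with 1 heart left out. Called shed substrates numbered 0 over the 5 hearts and with either replicate block, 2 with DESeq2, and 0 to 2 with 1 heart left out. The causes were not tested, beyond fewer hearts in the fits that leave some out. Deviations of same-numbered hearts correlated from -0.09 to 0.22 by title number and from -0.06 to 0.22 by code number (3 pairs each). Differently numbered female and male hearts ran from -0.25 to 0.25. With 3 pairs each, these values cannot decide whether the numbers pair the hearts.

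No called value changed sign. Of values that passed in no fit, 58 for 20 members had the opposite sign. Over the 5 hearts these log2 values were 0.080 (Adamts19), 0.62 (Mmp12), 0.067 (Mmp23) and -0.032 (Timp1). Mmp12 was 0.18 with edgeR and 0.011 with limma-voom. With the replicate block by code number they were -0.012 (Adam10), 0.058 (Adam33), -0.031 (Adamts17), -0.018 (Adamtsl5), -0.0029 (Mmp15) and -0.080 (Timp4). With the block by title number they were -0.070 (Adam10), -0.16 (Adam5), -0.0091 (Adamtsl5), -0.056 (Mmp13), -0.0034 (Mmp15), -0.081 (Mmp3) and -0.023 (Timp1). With the covariate of total reads they were 0.053 (Adam19), -0.022 (Adamts17), 0.12 (Mmp12), 0.050 (Mmp23), -0.076 (Timp3) and -0.22 (Timp4). With 1 heart left out the ranges were -0.040 to 0.019 (Adam10), -0.055 to 0.00075 (Adam15), -0.38 to 0.0012 (Adam19), -0.10 to 0.024 (Adam33), -0.094 to 0.43 (Adam5), -0.071 to 0.062 (Adamts17), -0.14 to 0.015 (Adamts2), -0.043 to 0.13 (Adamts20), -0.15 to 0.043 (Adamts8), -0.015 to 0.029 (Adamtsl5), -0.38 to 0.24 (Mmp12), -0.030 to 0.40 (Mmp13), -0.094 to 0.19 (Mmp19), -0.049 to 0.057 (Mmp23), -0.0051 to 0.15 (Mmp3), -0.013 to 0.091 (Timp1) and -0.11 to 0.24 (Timp4). The 8 members with a mean under 50 are low genes, for which small differences were not detectable at this depth.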
